A study of Rattus norvegicus with 4 samples.

Results

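The genes described here encode the proteins of the cytosolic ribosome. They were chosen by symbol: a row of the count table was a member when its symbol had the form of a large-subunit name (Rpl with a number, or Rplp0 to Rplp2) or of a small-subunit name (Rps with a number, or Rpsa) and when its counts summed to at least 40 over the libraries. By this rule 94 symbols matched and 86 of them passed the minimum, out of 34034 genes listed and 12228 genes with at least 40 counts. Of the 86 members, 77 carry the plain names of ribosomal proteins, 46 of the large and 31 of the small subunit, and 9 carry names with an added l for a like-copy or paralogue. The cells were rat mesenchymal stem cells from femurs, all in osteogenic induction medium and sampled at day 1. There was 1 library for each of 4 groups: senescent cells given trichostatin A (TSA) plus phenamil for 24 h, senescent cells given TSA alone for 24 h, senescent cells with vehicle (senescent control) and young cells with vehicle (young control). TSA inhibits histone deacetylases, and phenamil is a derivative of the diuretic amiloride. The sample labels name phenamil, whereas the design text of the series names benzyl ether as the second agent, and the labels were followed. Doses, the ages of the animals, the number of animals behind a library and the way in which cells became senescent are not stated in the labels or the design text, and no library held phenamil without TSA.

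Each mature ribosome carries 1 copy of nearly every ribosomal protein, so cells make the mRNAs of these genes in quantity and in step with each other. Most of these mRNAs begin with a C followed by a run of pyrimidines, the 5′ terminal oligopyrimidine (TOP) element, through which the kinase mTOR and the RNA-binding protein LARP1 set how much of the mRNA is translated and kept. In bone-forming cells the demand on the ribosome is high, because osteogenic cells secrete large amounts of collagen.

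A run of at least 8 pyrimidines near the start was found in 43 of the 70 members with an annotated start, and the region is shown first, in the 30 bases around the annotated transcription start (15 on each side) from the RefSeq promoters of the rat build GRCr8. The capitals mark the longest run of pyrimidines (C or T) in the window on the strand of the gene, whatever its length. The first set holds members that were higher with TSA, the second the 3 plain-named members that were lower with TSA, and the third a pair of canonical genes beside their paralogues.

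Rpl34 (chr2:221962269-221962298, minus strand): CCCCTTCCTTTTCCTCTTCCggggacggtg
Rpl31 (chr9:49143096-49143125, plus strand): ccacaatccctcgcgCCTTTCCTTTCCaac
Rps24 (chr16:96502-96531, plus strand): tgagcggTCCTCTTTTCCTCCTTTacagct
Rpl36a (chrX:102059434-102059463, plus strand): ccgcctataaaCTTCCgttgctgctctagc
Rplp1 (chr8:71290858-71290887, minus strand): gcaggcgcatgtgaTCCTTTCCTCagctgc
Rpl36 (chr9:1533765-1533794, plus strand): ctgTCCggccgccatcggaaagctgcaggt
Rpl41 (chr7:1563483-1563512, minus strand): ggcggCTCggaagtgacgacaccaagcacg
Rps27 (chr2:177964592-177964621, minus strand): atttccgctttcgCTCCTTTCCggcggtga
Rps27l (chr8:76443643-76443672, plus strand): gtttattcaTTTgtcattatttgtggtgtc
Rpl22 (chr5:168117946-168117975, plus strand): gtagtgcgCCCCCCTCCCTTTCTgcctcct
Rpl22l1 (chr2:113683181-113683210, plus strand): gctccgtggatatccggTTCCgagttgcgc

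In Rpl31, Rplp1 and Rps27 the pyrimidine run lies across or begins at the annotated start, and in the paralogues Rps27l and Rpl22l1 the longest run is 3 and 4 bases, against 9 in Rps27 and 15 in Rpl22. The table held a start for 70 of the 86 members. A run of at least 8 pyrimidines stood in the window in 42 of the 62 plain-named genes with a start (67.7%), in 11.5% of 9856 genes tested that had one, and in 11.4% of all 27457 promoters. Annotated starts can be off by some bases, so a window without a run, as in Rpl36 and Rpl41, says nothing about the true start. In the 300 bases from 250 before to 50 after the start, CCGGAA, the core bound by ETS family factors, was found on either strand in 53.2% of the plain-named genes, in 29.5% of the genes tested and in 15.8% of all promoters. ATGGCG, the core of the YY1 site, was found in 30.6%, 18.5% and 10.6% of the same sets. CTTTCC, which shares the letters TTCC with the reverse complement of CCGGAA, was found in 48.4%, 25.9% and 26.4%. TATAAA, the TATA box, was found in 9.68%, 6.56% and 14.3%. These matches describe letters and were not tied to binding of any factor.

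Totals ran from 9873894 counts in the TSA library to 11024227 in the senescent control, and 16277 to 16547 genes had at least 1 count. All 12 mesenchymal stromal markers were measured, although Eng and Vcam1 had 9 to 23 counts per library and Lepr 10 to 44. None of the 7 haematopoietic, 4 erythroid or 5 endothelial markers reached 40 counts, and their summed levels were at most 1.33, 1.62 and 0.403 CPM (counts per 1000000 of the scaled library size); Hbb, Itgam, Lyz2, Adgre1, Pecam1 and Emcn were at 0. Beside the ribosomal protein genes, other abundant RNAs differed between libraries. Mitochondrially encoded mRNAs took 6.85% of counts with TSA plus phenamil, 6.02% with TSA, 5.66% in the senescent control and 5.47% in the young control, mitochondrial rRNAs 4.07%, 3.41%, 4.27% and 3.99%, and Col1a1 with Col1a2 4.64%, 3.83%, 4.23% and 4.55%. The part of these shifts in the results below was not tested.

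Ribosomal protein genes took the largest share of counts in the TSA library and the smallest in the young control. The 86 members held 8.08% of counts with TSA plus phenamil (exact 95% Clopper-Pearson interval 8.06 to 8.09), 8.84% with TSA (8.82 to 8.85), 7.93% in the senescent control (7.92 to 7.95) and 7.48% in the young control (7.47 to 7.50). These intervals cover counting error only. After scaling, the summed level of the members with TSA was 1.108 (1.105 to 1.111) times that of the senescent control, and with TSA plus phenamil it was 1.04 (1.04 to 1.04) times that level. The summed level with TSA plus phenamil was 0.937 (0.935 to 0.940) times that with TSA alone, and the senescent control stood at 1.08 (1.08 to 1.08) times the young control. The balance of the subunits differed little: counts of large-subunit genes were 1.16, 1.16, 1.17 and 1.15 times those of small-subunit genes in the TSA plus phenamil, TSA, senescent control and young control libraries.

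**Figure D1:**
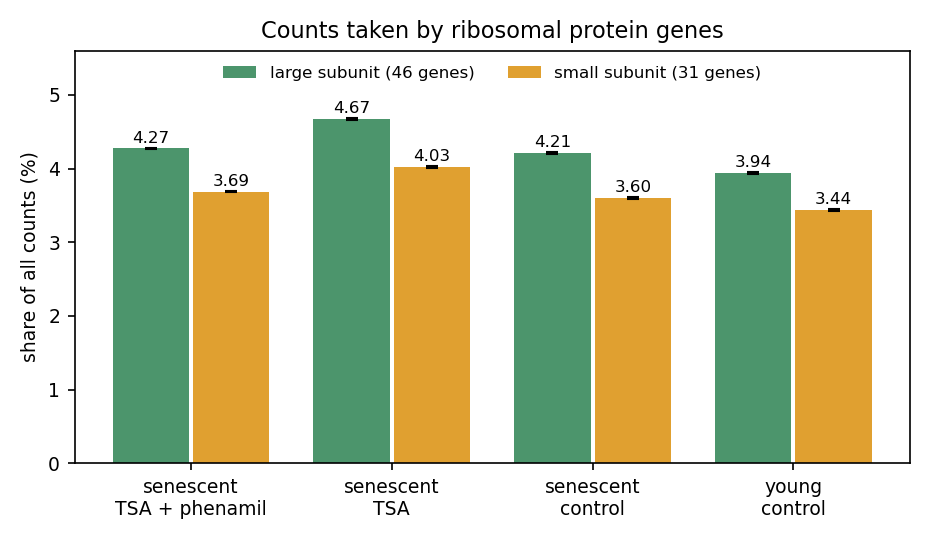
Share of all counts, in percent, taken by the plain-named large-subunit (46) and small-subunit (31) genes in each library; bars start at 0 and the short black marks are exact 95% counting intervals. The TSA library has the highest bars, 4.67% and 4.03%, and the young control the lowest, 3.94% and 3.44%.

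Ratios below are of counts after TMM scaling (a trimmed mean of M-values sets the size of each library), each with its exact 95% counting interval in parentheses. A gene is called higher or lower when that interval excludes 1. With 1 library per group there is no replicate check and no p-value, and each comparison describes a pair of libraries rather than conditions. In bulk RNA a change in the mix of cells and a change in the RNA per cell cannot be told apart. Because intervals narrow with depth, the share of genes called is given for all 12228 genes tested and for the 5270 with at least 1000 counts, to which 80 of the members belong. Many members lie far above that floor, with median levels of 784 to 932 CPM per library. At such depth a ratio as near 1 as 1.03 (Rplp0, TSA against senescent control) is called. Neither background is matched to the depth of the members, and the part of depth in the shares called was not tested.

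The first comparison asked how TSA alone differed from vehicle in senescent cells. Of the 86 members, 67 were higher, 3 lower and 16 neither; the background of higher calls was 15.7% of all genes tested and 21.7% of genes with at least 1000 counts, and that of lower calls 14.7% and 20%. The median log2 ratio of the members was 0.14, beside -0.003 over all genes tested. By subunit, 36 of 46 large-subunit genes were higher and 3 lower, with a median of 0.14, and 26 of 31 small-subunit genes were higher and 0 lower, also with a median of 0.14. The differences were small in size: 13 members had their whole interval above 1.2-fold (background 2.72%, or 1.76% at 1000 counts) and 0 had it below (2.81% and 2.13%).

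Among the plain-named genes Rpl32, a large-subunit protein, was highest against control, with 158 CPM in the TSA library and 107 CPM in the senescent control, a ratio of 1.47 (1.37 to 1.59). Rpl36a had 711 CPM with TSA against 522 CPM in the senescent control (1.36, 1.32 to 1.41). Of the small-subunit genes, Rps25 had 501 CPM with TSA against 391 CPM in the senescent control (1.28, 1.23 to 1.33), and Rps9 was also at 1.28 (1.24 to 1.31). Rps19, the gene most often mutated in human Diamond-Blackfan anaemia, had 1467 CPM with TSA and 1182 CPM in the senescent control (1.24, 1.21 to 1.27). Rpl5 and Rpl11, which with 5S rRNA form the particle that binds the p53 regulator MDM2 when ribosome assembly is disturbed, were at 1.16 (1.11 to 1.203) and 1.14 (1.11 to 1.16). Rps6, the substrate of the S6 kinases downstream of mTOR, was at 1.13 (1.11 to 1.16). The members beyond 1.2-fold included Rpl3, Rpl19, Rpl31, Rpl32, Rpl34, Rpl36a, Rps9, Rps19, Rps24 and Rps25, and the low-count copies Rpl5l1 and Rpl10l1.

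Other members with known roles had no interval wholly beyond 1.2-fold. Rps23, which lies in the decoding centre, had 1129 CPM with TSA and 917 CPM in the senescent control (1.23, 1.198 to 1.26). Rpl35, at the exit of the peptide tunnel, had 1811 CPM against 1482 CPM (1.22, 1.196 to 1.25). Rpl23 and Rps20, which like Rpl5 and Rpl11 can bind MDM2 in human cells, were both at 1.12, and Rpl39, a small protein of the tunnel wall, was at 1.11 (1.07 to 1.15). Rpl13a, which in human monocytes also represses translation outside the ribosome, was at 1.07 (1.05 to 1.09), and Rpl7a at 1.05 (1.02 to 1.09). Rpl10a had 326 CPM with TSA and 314 CPM in the senescent control, and its interval of 0.990 to 1.09 included 1.

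The 3 lower members were all of the large subunit. Rplp1, one of the acidic proteins of the stalk that recruits translation factors, had 911 CPM with TSA and 1035 CPM in the senescent control (0.880, 0.856 to 0.905). The other stalk genes went the other way, with Rplp2 at 1.09 (1.07 to 1.11) and Rplp0 at 1.03 (1.01 to 1.06). Rpl36 had 182 CPM with TSA and 213 CPM in the senescent control (0.855, 0.804 to 0.909). Rpl41, which encodes a very short basic peptide, was at 0.973 (0.952 to 0.993). The most abundant member, Rpl37a, had 3641 CPM with TSA and 3633 CPM in the senescent control, a ratio of 1.002 (0.988 to 1.02), and Rps2, Rps14, Rpsa and Rpl10 also had intervals that included 1.

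**Figure D2:**
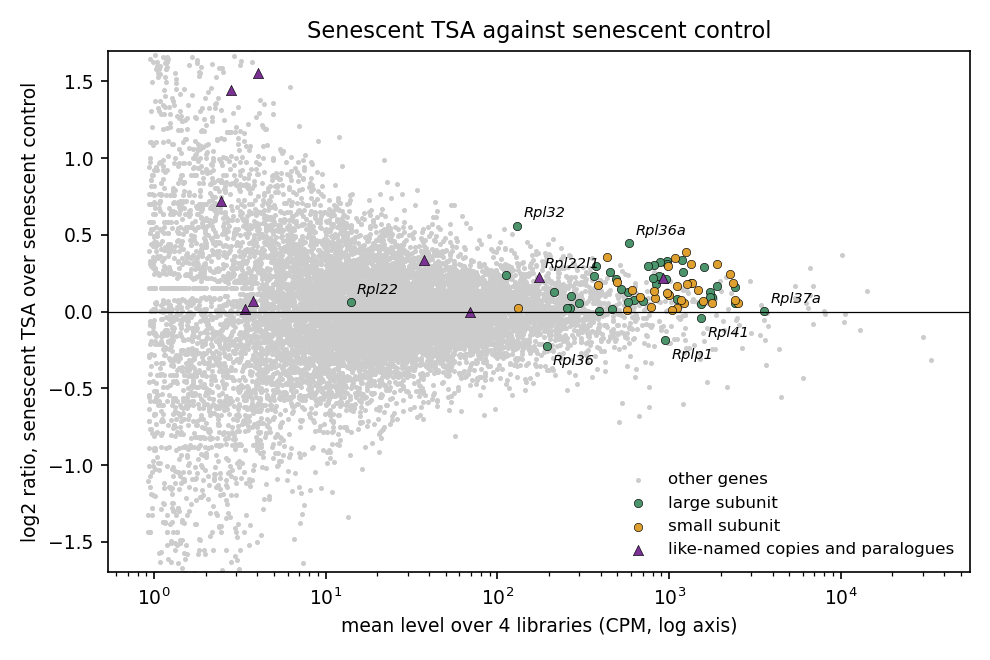
Log2 ratio of senescent TSA over senescent control against the mean level over the libraries (CPM, log axis) for the genes tested; coloured points are members and grey points other genes, of which 105 lie beyond the plotted limits of 1.7. Most members lie above 0 at the abundant end, with Rpl32 and Rpl36a on top and Rpl36 and Rplp1 below 0, while like-copies with few counts scatter widely.

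The second comparison set TSA plus phenamil against vehicle in senescent cells. Members were split: 44 of 86 were higher, 23 lower and 19 neither, beside backgrounds of 15.8% higher and 15.9% lower over all genes tested and of 20.9% and 22.4% at 1000 counts. The median log2 ratio was 0.07, beside -0.0005 over all genes tested, and it was 0.0433 with libraries scaled to their total counts. The share called lower was 26.7% of members, near the background of abundant genes. Large- and small-subunit genes had medians of 0.07 and 0.05. Whole intervals lay above 1.2-fold for 7 members (background 2.85%, or 1.90% at 1000 counts) and below it for 0 (2.49% and 1.75%).

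Rpl32 was again high, with 153 CPM with TSA plus phenamil against 107 CPM in the senescent control (1.42, 1.32 to 1.54). Rpl17 and Rpl4, whose proteins line the tunnel through which the new peptide leaves, were at 1.32 (1.27 to 1.38) and 1.27 (1.23 to 1.31). Rps25 was at 1.29 (1.24 to 1.35) and Rps19 at 1.23 (1.202 to 1.26). Rps20 and Rpl13a were at 1.13 (1.104 to 1.16) and 1.08 (1.05 to 1.098). On the lower side, Rpl10a was at 0.887 (0.844 to 0.932) and Rpl7a at 0.946 (0.914 to 0.978), and Rpl36 had 168 CPM with TSA plus phenamil and 213 CPM in the senescent control (0.789, 0.741 to 0.839). Rplp1 was at 0.857 (0.834 to 0.881), Rpl41 at 0.863 (0.844 to 0.881), and Rps14, whose loss of 1 copy is a feature of the human 5q- syndrome, at 0.872 (0.841 to 0.904). All 3 stalk genes were lower here, Rplp0 at 0.915 (0.895 to 0.935) and Rplp2 at 0.957 (0.938 to 0.977). This comparison shares the senescent control library with the one before, so a gene that is high or low in that library enters both.

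**Figure D3:**
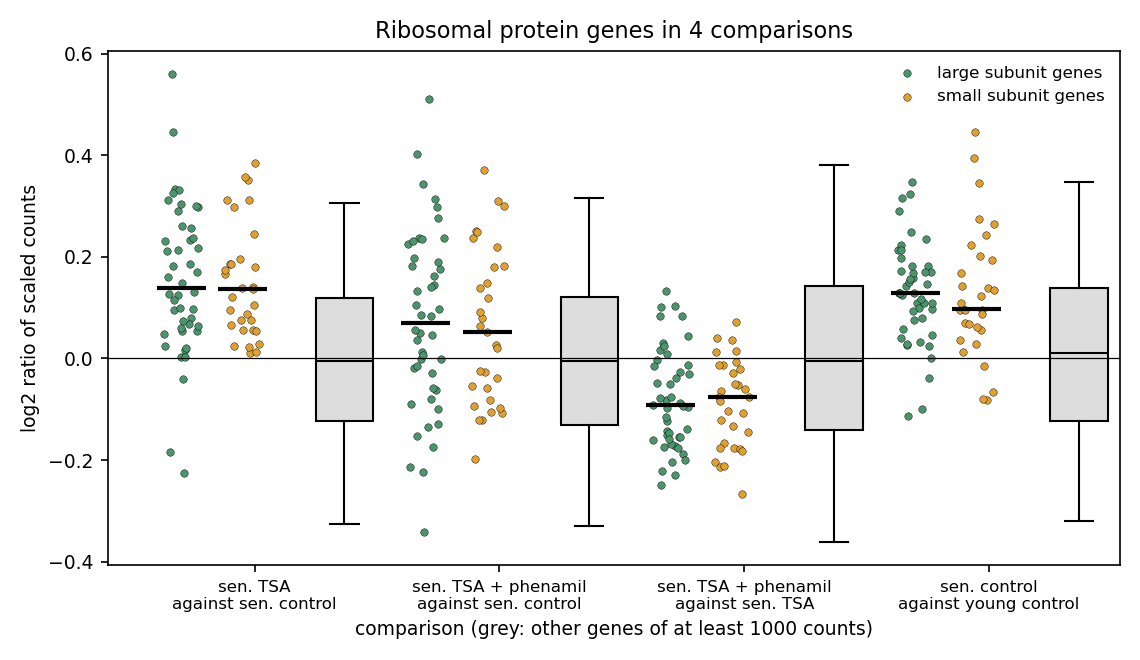
Log2 ratio of scaled counts for each plain-named large-subunit (green) and small-subunit (orange) gene in 4 comparisons, with black bars at the medians; grey boxes show other genes with at least 1000 counts (median, quartiles, 5th and 95th percentiles). The members centre near 0.14 with TSA, nearer 0 with TSA plus phenamil, below 0 for TSA plus phenamil against TSA, and above 0 for senescent against young control.

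The third comparison asked what differed when phenamil was added to TSA. It shares the TSA library with the first comparison, so a gene that is high or low in that library enters both, in opposite directions. Here 51 of 86 members were lower, 8 higher and 27 neither, beside backgrounds of 17.1% lower and 16.6% higher over all genes tested and of 24.8% and 22% at 1000 counts. The median log2 ratio was -0.09, beside 0.0009 over all genes tested. No plain-named gene had its whole interval beyond 1.2-fold in either direction; 1 paralogue, Rpl22l1, was below it (background 3.39%, or 3.21% at 1000 counts) and 0 members above it (3.96% and 3.64%).

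Among plain-named genes Rps28 had 1294 CPM with TSA plus phenamil and 1556 CPM with TSA (0.831, 0.812 to 0.851). Rpl37 had 1667 CPM against 1980.4 CPM (0.842, 0.825 to 0.859). Rpl11 was at 0.868 (0.848 to 0.888), whereas Rpl5, its partner in the 5S particle, was at 1.02 (0.980 to 1.06). Rpl10a was at 0.854 (0.812 to 0.898), Rpl7a at 0.899 (0.868 to 0.930) and Rpl23 at 0.919 (0.901 to 0.937). The higher members included Rpl4, Rpl12, Rpl17, Rpl26, Rpl29, Rps6 and the low-count copy Rpl27l1, with Rpl26 at 1.096 (1.04 to 1.15), Rpl17 at 1.07 (1.03 to 1.12) and Rpl12 at 1.06 (1.03 to 1.09). Rps25, Rps19, Rps20, Rpl13a, Rpl32 and Rpl35 had intervals that included 1. With libraries scaled to their total counts, 4 members were higher in place of 8.

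The fourth comparison asked how untreated senescent cells differed from young cells. It shares the senescent control library with the first and second comparisons, where that library is the denominator. Of the 86 members, 66 were higher in the senescent control, 7 lower and 13 neither, beside backgrounds of 18.1% higher and 16.7% lower over all genes tested and of 25.6% and 20.7% at 1000 counts. The median log2 ratio was 0.13, beside 0.005 over all genes tested. Large-subunit genes had a median of 0.13 and small-subunit genes one of 0.10. Whole intervals lay above 1.2-fold for 4 members (background 3.56%, or 2.83% at 1000 counts) and below it for 1 (3.39% and 1.82%), the like-copy Rpl10l1.

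Those 4 were Rps4x, Rps3a, Rpl4 and Rps27a. Rps4x, the X-linked form of the small-subunit protein S4, had 144 CPM in the senescent control and 105 CPM in the young control (1.36, 1.26 to 1.47). Rps3a had 489.6 CPM against 373 CPM (1.31, 1.26 to 1.37), Rpl4 704 CPM against 554 CPM (1.27, 1.23 to 1.32), and Rps27a, made as a fusion with ubiquitin, 613 CPM against 483 CPM (1.27, 1.23 to 1.32). Rpl41 was at 1.22 (1.197 to 1.25), with 1687 CPM in the senescent control and 1379 CPM in the young control. The plain-named members that were lower in the senescent control included Rpl3 at 0.925 (0.899 to 0.951), Rpl15 at 0.933 (0.905 to 0.962), Rps19 at 0.9451 (0.923 to 0.968) and Rps3 at 0.955 (0.930 to 0.981), and the like-copies Rpl10l1 and Rpl26l1 were lower as well. Rpl3, which lies next to the site of peptide bond formation, had 863 CPM in the senescent control and 934 CPM in the young control.

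The treated senescent libraries were also set against the young control. With TSA, 78 of 86 members were higher and 2 lower (backgrounds of 20.9% and 20.4% over all genes tested, and of 30.3% and 26.1% at 1000 counts), with a median log2 ratio of 0.28 beside 0.004 over all genes. Whole intervals lay above 1.2-fold for 36 members (6.46%, or 7.65% at 1000 counts) and below it for 0 (6.43% and 6.47%). With TSA plus phenamil, 60 were higher and 3 lower (16.1% and 15.7%, and 23.0% and 20.5% at 1000 counts), with a median of 0.18 beside 0.002. Above 1.2-fold were 22 members (3.07%, or 2.79% at 1000 counts) and below it 0 (2.67% and 1.21%). Rpl4 was at 1.61 (1.56 to 1.67) with TSA plus phenamil and at 1.56 (1.51 to 1.62) with TSA, and Rps3a at 1.49 (1.43 to 1.55) and 1.505 (1.45 to 1.57) in the same order. Rps27a and Rps4x, which were already higher in the senescent control, were at 1.38 and 1.27 with TSA plus phenamil and at 1.40 and 1.38 with TSA. The 2 lower members with TSA were Rplp1 at 0.955 (0.928 to 0.982) and Rpl36 at 0.869 (0.817 to 0.925). With TSA plus phenamil the same pair and Rps14 were lower, at 0.930 (0.904 to 0.956), 0.802 (0.753 to 0.853) and 0.910 (0.877 to 0.944). With total-count scaling 16 members were lower with TSA plus phenamil than in the young control.

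Across the libraries, 59 of the 77 plain-named genes had their highest level in the TSA library (76.6%), 15 with TSA plus phenamil, 3 in the senescent control and 0 in the young control. Over the 5270 genes with at least 1000 counts the TSA library was highest for 30.9%. The young control was lowest for 58 of the 77 (75.3%), against 31.2% of those genes, and the TSA library was lowest for 0. The 3 genes highest in the senescent control were Rpl41, Rplp1 and Rpl36. The spread over the libraries ran from 1.04 times between the lowest and highest level in Rps15 to 1.61 times in Rpl4. Rps2 and Rps16 stood at 1.07 times, and Rpl32 at 1.57 times.

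**Figure D4:**
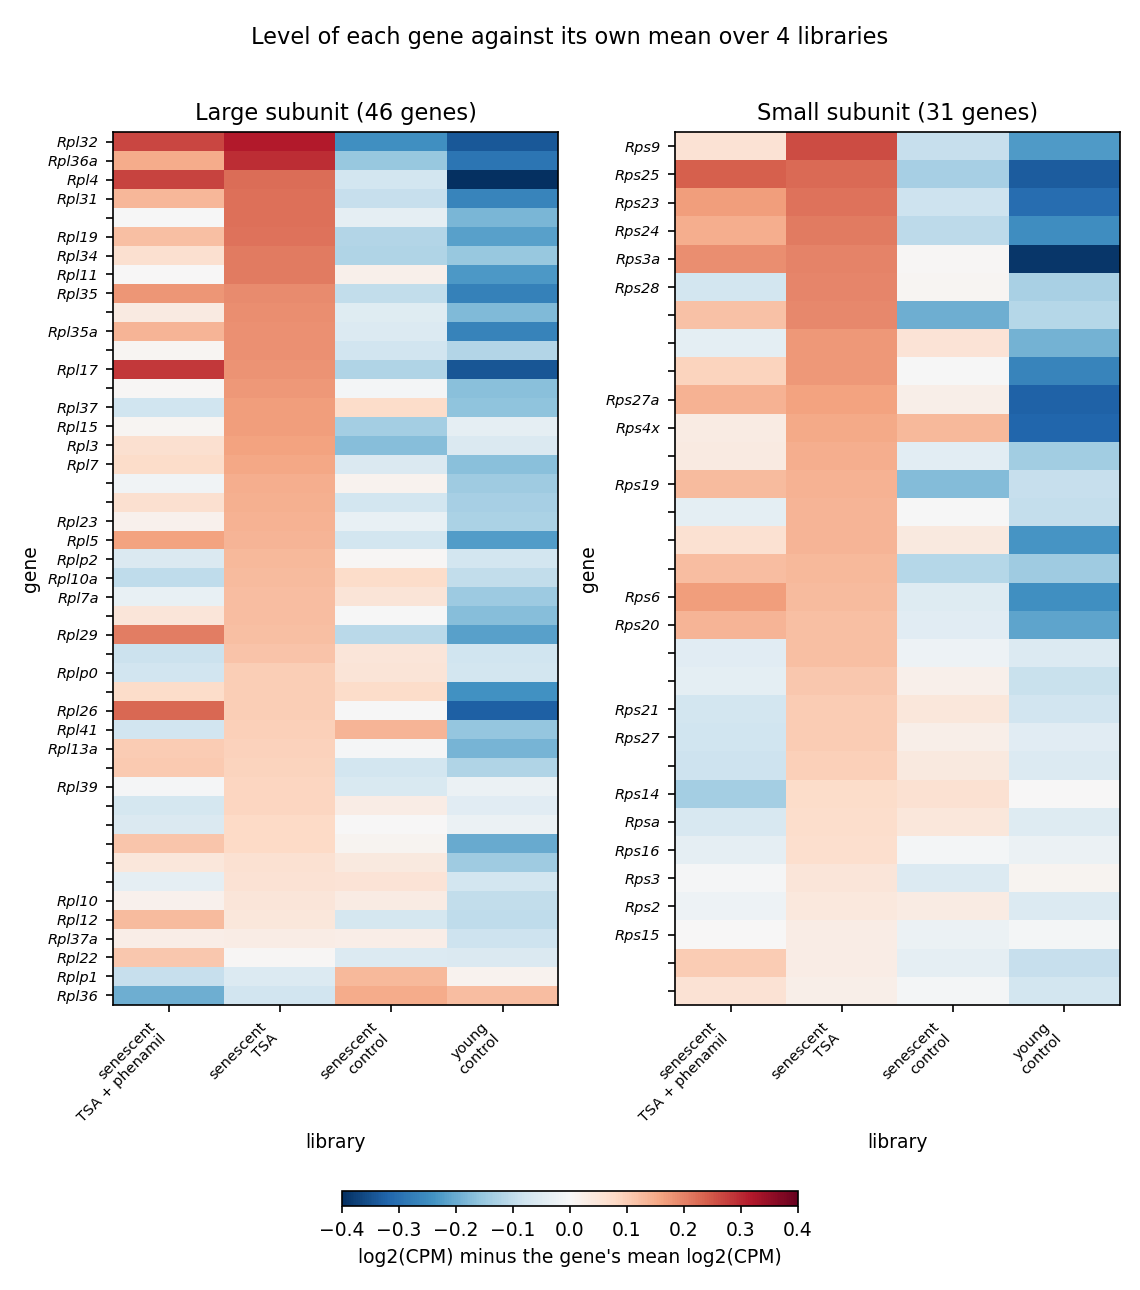
Level of each plain-named gene in each library as log2(CPM) minus the mean over the libraries, red above and blue below, with genes ordered by their value in the TSA library and the names of some rows given. The TSA column is red in nearly every row, the young control column is mostly blue, and Rplp1 and Rpl36 at the foot of the large-subunit panel show the reverse.

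The order of members by level changed little. Rpl37a was most abundant in each library, with 3633 CPM with TSA plus phenamil, 3641 CPM with TSA, 3633 CPM in the senescent control and 3370.3 CPM in the young control. Rps21 had 2398, 2709, 2606 and 2394 CPM, and Rps16 2371, 2546, 2415 and 2393 CPM, in that order of libraries. Among plain-named genes Rpl22 was lowest, with 15.05, 14.01, 13.44 and 13.43 CPM. By mean over the libraries Rpl35a (112 CPM), Rpl32 (130 CPM) and Rps4x (132 CPM) came next, in an order that differed between libraries. The kit reads the 3′ ends of transcripts, so counts are not in proportion to transcript length and were not divided by it. The sources used here do not say how reads that match several places were counted. Eef1a1, an elongation factor gene that is very abundant in most cells, was counted at 71.5 to 93.5 CPM, so levels of genes with many near-identical copies are uncertain.

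Ratios of single members can be set side by side from pairs of libraries with nothing in common. Over the 77 plain-named genes the log2 ratios of TSA against senescent control and of TSA plus phenamil against young control had Pearson's r of 0.65 and Spearman's rho of 0.63, and over the 5270 genes with at least 1000 counts 0.32 and 0.32. For TSA plus phenamil against senescent control beside TSA against young control, the 77 genes had r of 0.65 and the 5270 genes -0.20. For TSA plus phenamil against TSA beside senescent against young control, the 77 genes had r of 0.08 and the 5270 genes -0.48. These are descriptions across genes, which are not independent replicates, and points in each share their library, depth and preparation. The 42 genes with the pyrimidine run and the 20 without it had close medians of the log2 ratio, with no single order. With the run and without it, they were 0.10 and 0.13 for TSA against senescent control, 0.04 and 0.07 for TSA plus phenamil against senescent control, -0.08 and -0.10 for TSA plus phenamil against TSA, and 0.13 and 0.10 for senescent against young control. Against the young control they were 0.28 and 0.24 with TSA, and 0.17 and 0.19 with TSA plus phenamil.

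Paralogues did not all follow their canonical genes. Rpl22l1, which in mice is held down by the Rpl22 protein, had 149 CPM with TSA plus phenamil, 215 CPM with TSA, 183 CPM in the senescent control and 148 CPM in the young control. It was at 0.696 (0.652 to 0.744) for TSA plus phenamil against TSA, at 0.816 (0.763 to 0.872) for TSA plus phenamil against senescent control, at 1.17 (1.101 to 1.25) for TSA against senescent control and at 1.24 (1.16 to 1.32) for senescent against young control. Rpl22 itself, with 139 to 158 counts per library, had intervals that included 1 in all 4 comparisons. Rps27l, which in human and mouse cells is a target of p53, had 911, 1069, 919.5 and 789 CPM in the same order of libraries, and Rps27 had 1102, 1249.8, 1185 and 1129 CPM. With TSA Rps27l was at 1.16 (1.13 to 1.19) times the senescent control and Rps27 at 1.05 (1.03 to 1.08). In the senescent against the young control they were at 1.17 (1.13 to 1.2) and 1.05 (1.02 to 1.08). Rpl7l1, a factor of pre-rRNA processing related to Rpl7, was at 1.0003 (0.904 to 1.11) with TSA, where Rpl7 was at 1.16 (1.13 to 1.19).

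**Figure D5:**
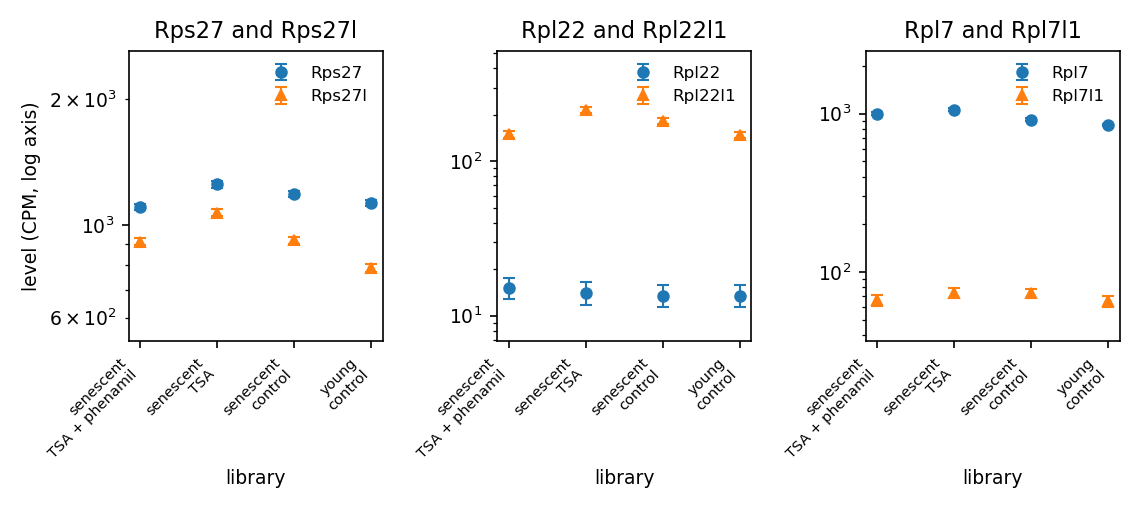
Level in CPM (log axis) of canonical genes (circles) and their paralogues (triangles) in each library, with exact 95% Poisson counting intervals. Rpl22l1 has 149 CPM with TSA plus phenamil and 215 CPM with TSA, its highest level, while Rpl22 stays between 13.43 and 15.05 CPM.

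The other like-named members had few counts. Rpl30l2 had 460, 418, 367 and 331 counts with TSA plus phenamil, with TSA, in the senescent control and in the young control. Rpl10l1 had 42, 59, 22 and 46 counts and Rpl5l1 44, 35, 14 and 24 counts, so that their ratios of TSA over senescent control, 2.98 (1.80 to 5.10) and 2.78 (1.46 to 5.59), rest on the low counts of the senescent control. Rpl26l1, Rpl27l1 and Rpl31l2 had 18 to 58 counts per library. The members nearest the minimum were Rpl26l1 with 104 counts in all, Rpl5l1 with 117 and Rpl31l2 with 145, and the nearest symbols left out were Rpl31l1 with 19, Rpl39l with 11 and Rpl30l1 with 8. All 8 symbols left out are like-named, among them the muscle form Rpl3l with 2 counts and the form Rpl39l, known from male germ cells, with 3, 7, 1 and 0 counts.

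The symbol rule leaves out ribosomal proteins with other names, among them Fau and Rack1. Fau, a fusion that carries the small-subunit protein S30, was at 1.01 (0.975 to 1.04) with TSA, at 0.932 (0.903 to 0.962) with TSA plus phenamil and, in senescent against young control, at 1.12 (1.09 to 1.16). Rack1, a signalling scaffold on the small subunit, was at 1.09 (1.06 to 1.13), 1.07 (1.04 to 1.095) and 0.9447 (0.919 to 0.971) in the same comparisons. For TSA plus phenamil against TSA, Fau was at 0.926 (0.897 to 0.957) and Rack1 at 0.973, with an interval that reached 1.

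Further lists of genes around the ribosome were read against the same backgrounds, the shares of all 12228 genes tested. Of 33 genes listed as translation factors or as having TOP mRNAs, 11 (33.3%) were higher and 5 (15.2%) lower with TSA against senescent control. All genes had 15.7% and 14.7%. Whether each gene of the list has a TOP mRNA was not examined. At 1000 counts the share higher was 21.7%, and the share lower was above the 15.2% of the list. The median of the list was 0.06. Naca, a subunit of the complex that shields new peptides, was at 1.27 (1.21 to 1.33), Eef1b2, which recharges the elongation factor eEF1A, at 1.15 (1.12 to 1.18), and Eif3c, a subunit of the initiation factor eIF3, at 0.906 (0.872 to 0.942). With TSA plus phenamil 10 (30.3%) were higher and 7 (21.2%) lower, where all genes had 15.8% and 15.9%. At 1000 counts the shares were 20.9% and 22.4%, so the share of the list called lower was not above that background. The median of the list was 0.01, and Naca was at 1.30 (1.24 to 1.36). For TSA plus phenamil against TSA, 4 (12.1%) were higher and 9 (27.3%) lower, where all genes had 16.6% and 17.1%. At 1000 counts the share lower was 24.8%, near that of the list, and the share of the list called higher lay below both backgrounds. Pabpc1, the cytoplasmic poly(A)-binding protein, was at 1.15 (1.12 to 1.18) and Eif5a, which carries the hypusine residue, at 0.817 (0.777 to 0.859). In senescent against young control 13 (39.4%) were higher and 2 (6.06%) lower, where all genes had 18.1% and 16.7%, or 25.6% and 20.7% at 1000 counts. The median of the list was 0.02, and Tpt1, a classical TOP mRNA gene, was at 1.21 (1.17 to 1.24).

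Of 45 genes of ribosome biogenesis, 13 (28.9%) were higher and 5 (11.1%) lower with TSA, beside 15.7% and 14.7% of all genes, with a median of 0.06. The backgrounds at 1000 counts were 21.7% and 20%. Fbl, the methyltransferase of box C/D particles, was at 1.32 (1.23 to 1.41), Nop58 of the same particles at 1.25 (1.18 to 1.31), and nucleolin (Ncl) at 0.862 (0.817 to 0.908). With TSA plus phenamil 9 were higher and 9 lower (20% each, beside 15.8% and 15.9%), with a median of -0.02. The backgrounds at 1000 counts were 20.9% and 22.4%, so neither share of the list was above them. Against TSA alone 5 (11.1%) were higher and 15 (33.3%) lower, beside 16.6% and 17.1%, with a median of -0.09. The backgrounds at 1000 counts were 22% and 24.8%. Pes1, which acts in the maturation of the large subunit, was at 0.717 (0.617 to 0.832) against TSA alone. Ubtf, the factor that opens ribosomal DNA to RNA polymerase I, was at 0.767 (0.698 to 0.843) with TSA plus phenamil against senescent control. In senescent against young control 8 (17.8%) were higher and 6 (13.3%) lower, close to the 18.1% and 16.7% of all genes. Both shares were below the 25.6% and 20.7% at 1000 counts, and Fbl was at 0.825 (0.771 to 0.882).

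Calls among 27 genes that control ribosomal protein mRNAs were near the backgrounds or below them. With TSA 4 (14.8%) were higher and 2 (7.41%) lower, beside 15.7% and 14.7% of all genes. With TSA plus phenamil 2 (7.41%) were higher and 3 (11.1%) lower, beside 15.8% and 15.9%. For TSA plus phenamil against TSA, 4 were higher and 4 lower (14.8% each, beside 16.6% and 17.1%), and in senescent against young control 5 were higher and 5 lower (18.5% each, beside 18.1% and 16.7%). Myc, the transcription factor that drives ribosome synthesis, had 148 counts with TSA and 104 in the senescent control (1.58, 1.22 to 2.05), and it was at 0.717 (0.552 to 0.929) in senescent against young control. Larp1 was at 1.08 (1.01 to 1.15) with TSA, at 1.22 (1.15 to 1.30) with TSA plus phenamil and at 0.891 (0.837 to 0.948) in senescent against young control. Tsc1, a brake on mTOR, was at 1.54 (1.21 to 1.96) with TSA plus phenamil, from 173 counts against 118 in the senescent control.

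The genes of the mitochondrial ribosome, which serves only the mitochondrial genome, are the nearest like set. With TSA 29 of 74 (39.2%) were higher and 0 lower than in the senescent control, beside 15.7% and 14.7% of all genes. The backgrounds at 1000 counts were 21.7% and 20%, and the median of the set was 0.11. In senescent against young control 25 (33.8%) were higher and 1 (1.35%) lower, beside 18.1% and 16.7%, with a median of 0.10. The backgrounds at 1000 counts were 25.6% and 20.7%. With TSA plus phenamil 6 (8.11%) were higher and 10 (13.5%) lower than in the senescent control, below the 15.8% and 15.9% of all genes, with a median of -0.03. Of the cytosolic members 51.2% were higher and 26.7% lower in that comparison. Against TSA alone 2 (2.703%) of the mitochondrial set were higher and 28 (37.8%) lower, beside 16.6% and 17.1%, with a median of -0.12. The backgrounds at 1000 counts were 22% and 24.8%. Mrps18c had ratios of 1.31 (1.16 to 1.48) for TSA against senescent control and of 0.741 (0.654 to 0.839) for TSA plus phenamil against TSA, and Mrps12 of 1.31 (1.14 to 1.51) and 0.684 (0.591 to 0.792). Mrpl39 was high with both treatments, at 1.37 (1.16 to 1.62) with TSA plus phenamil and at 1.35 (1.14 to 1.60) with TSA against senescent control. Their promoters held the run of at least 8 pyrimidines in 9 of 60 genes. CCGGAA was found in 53.3% and ATGGCG in 31.7%, close to the shares of the plain-named cytosolic genes, CTTTCC in 33.3% and TATAAA in 11.7%. With 1 library per group the difference between the sets was not tested.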

How the data were processed

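Gene expression was measured by 3′ mRNA sequencing (QuantSeq FWD, single-end reads, per the labels' protocols) in 4 libraries. The submitters' processing notes name the tools HTSeq 2.0.2 and STAR 2.7.10b and, as genome build, mRatBN7.2. Annotation, strand setting and handling of multiply matching reads are not given there. The deposited table holds raw counts per gene, per the file headers. The deposited log2 values were normalized by the authors, per the file headers, and were found equal to log2(count / library factor + 1) to within 0.000532.

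Counts were scaled by TMM with edgeR 4.0.16 (R 4.3.3) over the 12228 genes with at least 40 counts (35.9%). With single libraries the edgeR quasi-likelihood test has no residual degrees of freedom and was not used. Ratios carry exact conditional binomial (Clopper-Pearson) intervals at 95% from scipy 1.17.1; log2 ratios used a prior count of 0.5. The calculation of the intervals was checked on simulated independent Poisson counts. These hold no variation between libraries, so the check says nothing about such variation in the data. PCR copies of a molecule cannot be told from separate molecules, so intervals cover counting error only. Python 3.11.15, numpy 2.4.6, pandas 2.3.3 and matplotlib 3.10.9 were used. Alternatives were DESeq2 1.42.0 size factors, other scalings, filters, folds and the deposited values.

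The members, lists and tests were chosen with earlier results of these data known. Named genes were a set list of ribosomal proteins, the 4 highest and 4 lowest members per comparison by the interval bound nearest to 1, the 3 most and least abundant, and up to 3 per pathway list and direction; some of these are given by counts only. The set of genes printed with a start window, the choice of motifs and the addition of copies to their parents came after the values were seen. The list of genes that control ribosomal protein mRNAs holds Pdk1, a metabolic kinase that entered through its name. Promoters came from RefSeq, build GRCr8, matched by gene ID; no coordinates were converted between builds. Some genes chosen by this rule are not reported here.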

Additional observations from a re-analysis of the deposited data

How the results depend on the processing

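No paired analysis was possible because each group holds 1 library. Of 176 recomputed values for the medians, the counts of members called and the shares of counts, 160 stayed within the counting interval of the main value (for a median, that of the gene nearest to it) or within 1.5 times the main count, and none changed direction. The other 16 were as follows. With total counts as the scale, the median for TSA plus phenamil was 0.0433 against senescent control and -0.13 against TSA, and 4 members, in place of 8, were higher against TSA. With a filter of 200 or 1000 counts the median for TSA plus phenamil against senescent control was 0.0527 or 0.0510. For TSA plus phenamil against young control, 6 members, in place of 3, were lower with DESeq2 size factors, 8 with upper quartile scaling and 16 with total counts. Without mitochondrially encoded genes in the denominator the members' share was 9.07% with TSA plus phenamil, 9.76% with TSA, 8.81% in the senescent control and 8.26% in the young control, and without the 20 most abundant other genes it was 10.3%, 10.98%, 9.94% and 9.39%. Of 1376 ratios of single members under other scalings, 1327 kept their call, 25 lost it, 24 gained one and none changed direction. These ratios leave out both comparisons of treated cells with the young control, where calls of single members were not followed. Counts beyond a fold depend on the fold: with TSA against senescent control 35 members were above 1.1-fold and 1 above 1.5-fold. Counts of rows named as pseudogenes or like-copies, 0.653% of the members' counts, were added to their parents after the data were seen, which kept every median and call count within those bounds. Genes with few counts, such as Rpl22 and the like-copies, have intervals too wide to show differences of the size seen here.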

Other observations

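Rows named as pseudogenes of members did not all move with their parent genes. Rps14-ps7 had 1701 counts with TSA plus phenamil, 1802 with TSA, 1627 in the senescent control and 2025 in the young control, where Rps14 had 5385, 5887, 6477 and 6252. Rpl37a-ps11 had 895, 558, 905 and 1023 counts, where Rpl37a had 38145, 36117, 40019 and 37385. Rpl36al1, a like-copy of Rpl36a, had 1471, 1424, 1396 and 1070 counts. How reads were divided between such rows and their parents was not tested.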
